A study of Mus musculus with 24 samples.

Results

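CpG methylation was examined close to transcription starts in the mouse dentate gyrus, the region of the hippocampus that holds the granule neurons and the stem cells of adult neurogenesis. A CpG was included when its position lay within 1000 bp of the start of any autosomal transcript of GENCODE M21 on GRCm38. The rule took 326658 of 672847 autosomal CpGs (48.5%), out of 694379 CpGs in the whole table, and used no methylation value. Methylation had been measured by reduced representation bisulfite sequencing (RRBS), which sequences bisulfite-converted fragments from CpG-rich DNA, in 3 groups of 8 female C57BL/6JRj mice. Young STD mice were 3 months old and had lived in standard cages (STD). Aged STD mice were 17 months old and had also lived in standard cages, and aged ENR mice were 17 months old and had spent the last 3 months in environmental enrichment (ENR), a large cage with companions and changing objects. Each mouse gave 1 sample of micro-dissected, bulk tissue, so that a level is an average over cell types, and a change within cells cannot be told apart from a change in the cell types present.

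A mammalian promoter is the stretch of DNA around a transcription start where the transcription machinery assembles. Most CpGs of the genome are methylated, but the CpG-rich starts of broadly used and developmental genes, the CpG islands, are normally kept free of methylation. Dense promoter methylation is found at genes that are silenced for good in the body, such as germline genes, and at imprinted genes, where 1 of the parental copies is methylated and the other is not.

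Of the 326658 CpGs, 326655 fell on the C of a CG in GRCm38, and each strand of a CG counts as its own CpG. A mouse had a value at 148657 to 282380 of them (median 203836), and 3197 had a value in all 24 mice. The number of reads behind each value is unknown, so that no interval can be given for single values. Of all values near starts, 84.5% were exactly 0 and 6.86% exactly 100%, whereas 26.8% and 50.5% of the values at the other autosomal CpGs were. The library of aged STD replicate 5 stood apart from the other aged STD libraries through low methylation, and the comparisons rerun without it are given with and without it. It was picked from the same levels that are compared, and leaving out a low aged STD mouse widens the gap to aged ENR mice. A p without it is therefore not a separate test of that gap.

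The following reference sequences show what was measured at 1 promoter of each kind. They run from 250 bases before to 50 bases after a RefSeq start (GRCm38.p6) on the strand of the gene, 5′ to 3′, and each CG with a value on at least 1 strand is in capitals. Tbp encodes the TATA-box binding protein, which all cells use, and lies at chr17:15499638-15499937 on the plus strand. Map2, a microtubule protein of dendrites, lies at chr1:66175079-66175378 on the plus strand. Slc25a31 encodes an ADP/ATP carrier of germ cells and lies at chr3:40708621-40708920 on the plus strand. Mcts2, an imprinted retrogene, lies at chr2:152686898-152687197 on the plus strand. Acta1, the actin of skeletal muscle, lies at chr8:123894726-123895025 on the minus strand. Zkscan4, a zinc finger gene, lies at chr13:21478599-21478898 on the plus strand and is shown because its promoter was called between aged ENR and aged STD mice.
Tbp: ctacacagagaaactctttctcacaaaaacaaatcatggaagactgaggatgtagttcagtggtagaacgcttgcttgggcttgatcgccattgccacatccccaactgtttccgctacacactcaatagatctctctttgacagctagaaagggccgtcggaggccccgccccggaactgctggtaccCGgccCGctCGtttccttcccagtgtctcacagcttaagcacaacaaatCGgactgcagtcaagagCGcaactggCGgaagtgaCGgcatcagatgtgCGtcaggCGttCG
Map2: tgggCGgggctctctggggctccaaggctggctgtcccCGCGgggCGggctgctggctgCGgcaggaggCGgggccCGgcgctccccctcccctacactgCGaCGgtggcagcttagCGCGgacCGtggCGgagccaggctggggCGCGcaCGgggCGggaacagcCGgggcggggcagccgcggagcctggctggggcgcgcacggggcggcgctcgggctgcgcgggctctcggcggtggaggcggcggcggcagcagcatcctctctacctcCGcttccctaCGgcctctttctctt
Slc25a31: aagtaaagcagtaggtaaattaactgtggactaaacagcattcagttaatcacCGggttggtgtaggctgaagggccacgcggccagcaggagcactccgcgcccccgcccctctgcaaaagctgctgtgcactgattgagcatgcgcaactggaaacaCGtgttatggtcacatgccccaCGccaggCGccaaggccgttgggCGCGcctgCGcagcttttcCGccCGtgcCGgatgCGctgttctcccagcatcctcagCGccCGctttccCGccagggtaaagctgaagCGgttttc
Mcts2: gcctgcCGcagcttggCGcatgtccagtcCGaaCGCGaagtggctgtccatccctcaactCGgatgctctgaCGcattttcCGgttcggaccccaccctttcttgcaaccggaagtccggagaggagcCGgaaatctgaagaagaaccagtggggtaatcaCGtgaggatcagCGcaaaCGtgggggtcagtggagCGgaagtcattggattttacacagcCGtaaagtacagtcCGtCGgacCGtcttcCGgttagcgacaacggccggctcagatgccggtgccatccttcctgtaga
Acta1: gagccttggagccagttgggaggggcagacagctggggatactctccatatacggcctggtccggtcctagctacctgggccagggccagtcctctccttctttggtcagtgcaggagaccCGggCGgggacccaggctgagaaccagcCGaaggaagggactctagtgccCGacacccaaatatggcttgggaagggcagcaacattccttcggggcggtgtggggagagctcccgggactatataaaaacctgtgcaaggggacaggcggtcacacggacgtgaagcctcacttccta
Zkscan4: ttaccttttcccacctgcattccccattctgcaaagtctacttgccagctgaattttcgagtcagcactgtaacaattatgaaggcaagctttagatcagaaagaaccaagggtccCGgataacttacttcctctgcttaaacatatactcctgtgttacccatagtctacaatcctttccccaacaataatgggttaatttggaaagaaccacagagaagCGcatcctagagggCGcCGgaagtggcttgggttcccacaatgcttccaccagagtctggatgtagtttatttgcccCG

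Slc25a31 has 15 CGs in capitals, between the 10 of Tbp and the 20 of Map2, but its level was at the opposite end. Over the measured cytosines of the printed windows, the mean level was 0.62% at Tbp (13 cytosines, the highest at 5.56%) and 0.61% at Map2 (20 cytosines, the highest at 7.54%). At Slc25a31 the mean was 94.0% (18 cytosines, the lowest at 73.6%). The 22 measured cytosines of Mcts2 lay between these, at 25.02% to 42.99% with a mean of 32.3%. At Acta1, 4 cytosines were measured and had a mean of 34.3%.

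CpG methylation was lowest at the start itself and rose on both sides. The mean level, taken over the 3 groups, was 6.22% in the first 100 bp downstream of the start (60691 CpGs) and 6.58% in the last 100 bp upstream of it (53338 CpGs). It rose to 37.5% between 900 and 1000 bp upstream (2351 CpGs) and to 23.0% between 900 and 1000 bp downstream (4439 CpGs). The shares of unmethylated and methylated CpGs changed along with it. In the first 100 bp downstream 89.5% of CpGs were under 10% methylated and 3.56% were over 80%, whereas at the upstream edge 44.6% were under 10% and 27.9% over 80%. The boundary of 1000 bp marked no step, since CpGs in the last 50 bp inside it averaged 29.3% (3323 CpGs) and autosomal CpGs in the next 50 bp outside it 28.7% (3125 CpGs).

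The profile was not symmetric. At 500 to 1000 bp, the level was 17.3 ± 0.51% (SD, n = 24) downstream and 27.3 ± 0.81% upstream, and it was lower downstream in 24 of 24 mice, replicate 5 included. Over all starts pooled, the difference was −9.98 points, with single mice from −10.7 to −9.37 points (sign-flip permutation test, two-sided, p = 1e-05, the smallest that 100000 resamples can give). It was −6.54 points when only starts of protein-coding transcripts were used and −2.31 points at 200 to 500 bp.

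**Figure D1:**
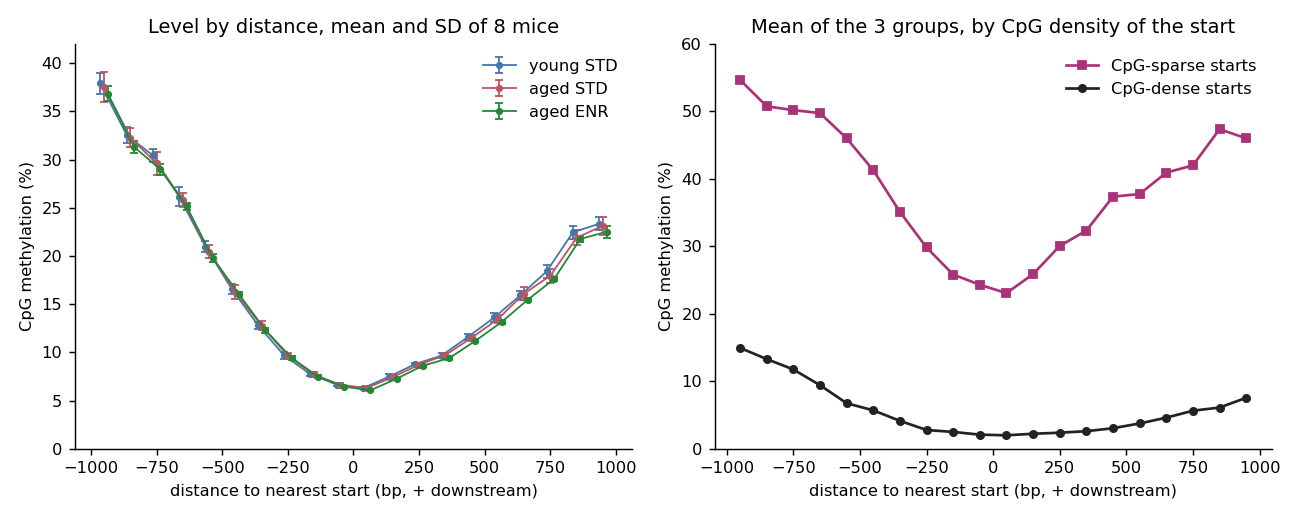
CpG methylation (percent) in 100-bp bins of distance to the nearest start, negative upstream. Left, mean and SD of 8 mice per group, with curves that nearly coincide, from 6.22% at the start to 37.5% at the upstream edge; right, the mean of the 3 groups split by the CpG density of the start, where CpG-dense starts lie at 2.0% and CpG-sparse starts at 23.1% just downstream of the start.

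CpG density divided the starts. It was measured in the reference as the observed over the expected number of CGs from 500 bp before to 500 bp after a start, and a ratio of at least 0.6 was called CpG-dense. CpG-dense starts were nearest to 246692 CpGs (75.5%), which averaged 3.00%, and CpG-sparse starts to 79966 CpGs, which averaged 32.2%. CpG-dense starts stayed low over the whole window, from 2.0% at the start to 14.9% at the upstream edge. CpG-sparse starts had 23.1% at the start and 54.7% at the upstream edge. At the downstream edge the levels were 7.56% for CpG-dense and 46.0% for CpG-sparse starts, lower than upstream in both classes. The outermost 100 bp held 1335 CpGs of CpG-sparse and 1016 of CpG-dense starts upstream, but 1786 and 2653 downstream. The difference of −9.98 points between the sides pools both classes in such unlike shares and was not computed within each class. Over all 326658 CpGs, 83.1% had a level under 10%, 10.8% a level of 10 to 80% and 6.17% a level over 80%. For the other autosomal CpGs these shares were 16.4%, 31.8% and 51.7%.

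Per gene, the promoter was taken as all CpGs within 1000 bp of any start of the gene. Of 51229 autosomal genes, 20897 had such a CpG and 16194 had at least 5, with a median of 20, and the levels below are of these 16194 promoters. The promoter level was under 10% in 12219 genes (75.5%), 10 to 80% in 2957 and over 80% in 1018 (6.29%), with a median of 2.45%. The share of promoters under 10% in a single mouse averaged 74.8 ± 1.14% (SD, n = 8) for young STD, 75.3 ± 1.64% for aged STD and 76.2 ± 0.55% for aged ENR mice. Aged STD mice differed from young STD mice by 0.52 points (exact permutation test, two-sided, p = 0.531) and aged ENR mice from aged STD mice by 0.83 points (p = 0.2), neither of which passed the test. Aged STD replicate 5 had the highest share (79.2%). Without it the aged STD mean was 74.8 ± 0.54% (SD, n = 7), and the differences were −0.032 points for aging (p = 0.95) and 1.38 points for ENR (p = 0.000777 in the exact permutation test), with 8 aged ENR mice at 75.5% to 77.0% and 7 aged STD mice at 74.0% to 75.6%.

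The kind of gene went with the level of its promoter. Among 12351 protein-coding genes, 79.3% of promoters were under 10% and 2.36% over 80%. Promoters of bidirectional long noncoding RNAs, which share their start region with a coding gene, were under 10% in 98.7% of 157 cases. Among the annotated start regions of 840 long intergenic noncoding RNAs, 13.0% were over 80%, and among those of 278 miRNAs 21.6% were. Processed pseudogenes, which are copies of mRNAs pasted back into the genome without a promoter of their own, showed the reverse, and 73.0% of their 515 start regions were over 80%, with a median of 91.8%.

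Protein-coding promoters also differed by CpG density. Of 9256 CpG-dense protein-coding promoters, 86.5% were under 10% and 26 (0.281%) were over 80%. Of 3095 CpG-sparse ones, 57.9% were under 10% and 8.56% over 80%. With at least 20 CpGs, the highest protein-coding promoters were Ndst2 (96.8%), Tuba3b (96.4%), the divergent histone pair Hist1h2aa and Hist1h2ba, which share the same 31 CpGs (96.1%), and Ccer1 (95.3%). Hist1h2aa and Hist1h2ba encode histone variants of male germ cells, and Tuba3b a tubulin expressed in testis. Among 6128 CpG-dense protein-coding promoters of that size, 6 were over 80%, and the 5 highest were Hist1h2aa, Hist1h2ba, Pabpc6 (95.0%), D1Pas1 (94.9%) and Slc25a31 (94.3%). Pabpc6 and D1Pas1 are intron-poor copies of a poly(A)-binding protein and of an RNA helicase gene that are used in the testis.

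**Figure D2:**
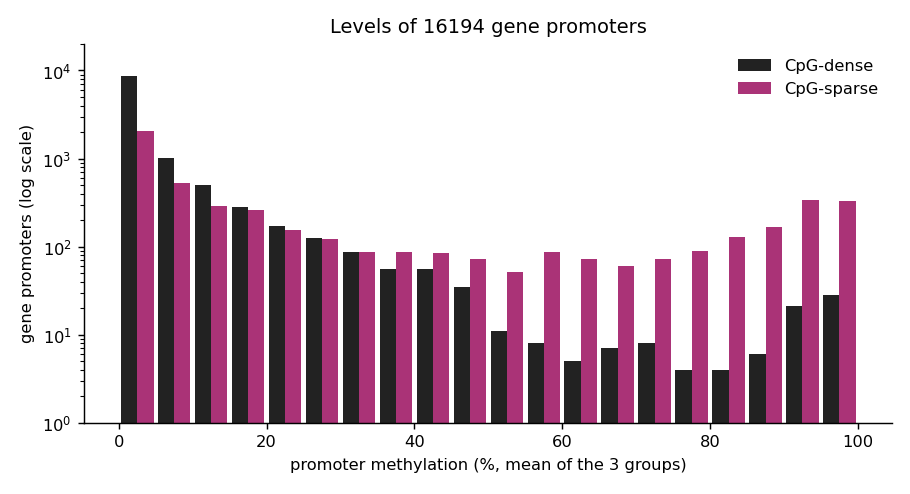
Number of gene promoters (log scale) by promoter methylation in steps of 5 points, for CpG-dense and CpG-sparse promoters. Of the 16194 promoters, 12219 lie under 10%, and CpG-sparse promoters form a further group near 100% that few CpG-dense promoters share.

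The gene lists differed in level. Housekeeping promoters were under 10% in 15 of 16 measured genes, with a median of 1.55%. Actb, the cytoplasmic actin (chromosome 5, start 142905937, minus strand), was at 2.45% over 83 CpGs. Its coverage-adjusted level per mouse, which can fall slightly below 0 because each CpG is centred on its own mean, ran from 1.13% to 5.0% (median 2.93%) in young STD, from 0.13% to 3.20% (median 1.91%) in aged STD and from −0.19% to 3.51% (median 2.24%) in aged ENR mice, and the groups overlapped. The lowest of the list was Rplp0, a ribosomal protein (0.067%, 5 CpGs).

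Promoters of activity-induced genes, which neurons switch on within minutes of firing, were also unmethylated. Of 20 genes, 19 were under 10%, with a median of 1.78%. Bdnf, a neurotrophin with several alternative starts, was at 2.45% over 123 CpGs and Egr2, a zinc finger transcription factor, at 1.18% over 120 CpGs. The lowest was Egr1, an immediate early transcription factor, at 0.433%. Npas4, a transcription factor that responds to calcium influx, was the highest at 10.3% over 31 CpGs. Its mice were widely spread, from 1.36% to 29.0% (median 8.52%) in young STD, from −2.10% to 19.01% (median 3.29%) in aged STD and from −2.69% to 30.5% (median 14.9%) in aged ENR mice. The 3 groups overlapped, and limma called neither Npas4 difference.

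Markers of granule and other neurons were under 10% in 11 of the 12 genes measured, with a median of 2.2%. Map2 was the lowest at 0.705% over 38 CpGs, Bcl11b, a transcription factor of granule neurons, was at 1.95% over 62 CpGs and Stxbp6, a regulator of vesicle fusion, at 1.72%. Camk2a, the alpha subunit of the calcium and calmodulin-dependent kinase II, was the highest at 12.2% with 8 CpGs, and too few mice had a value for a test.

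Markers of the other cell types in the tissue had higher medians. Oligodendrocyte markers had a median of 6.15% over 7 genes, from Olig1, a lineage transcription factor (1.74%), to Cnp, a myelin enzyme (18.6%). Astrocyte markers had a median of 11.1% over 6 genes, from Sox9, a glial transcription factor (2.36%), to Aldh1l1, a folate enzyme (35.7%). The 4 endothelial markers measured had a median of 9.41% and ranged from Cldn5, a tight junction protein (2.89%), to Esam, an adhesion molecule (14.4%). Only 2 of 12 microglia markers had at least 5 CpGs, among them Aif1, a calcium-binding protein, at 79.5% with 6 CpGs.

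Developmental transcription factors, which pattern the embryo and are mostly silent in adult neurons, were nevertheless unmethylated at their starts. Of 28 genes, 24 were under 10%, with a median of 4.03%. Hand2, a regulator of heart and limb formation, was the lowest at 0.77% and Hand1, of the same family, the highest at 19.4%. Pax2, a regulator of kidney and midbrain formation, was at 3.07% over 103 CpGs. Pax6, which is used in neural progenitors, was at 14.3% over 109 CpGs.

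Germline genes formed the opposite end. Of 26 genes, 13 were measured, 9 of these were over 80% and the median was 91.7%. Slc25a31 was at 94.3% over 29 CpGs, with mice from 85.3% to 99.2% (median 95.6%) in young STD, from 85.1% to 97.8% (median 91.9%) in aged STD and from 90.6% to 99.6% (median 95.8%) in aged ENR mice. All 24 values were thus above 80%, and the groups overlapped. Rpl10l, a ribosomal protein gene of the testis, was the highest at 99.0% and Tuba3b was at 96.4%. The lowest was Zar1, a gene of the oocyte, at 8.54% over 17 CpGs. The 3 others not over 80%, named after their values were seen, were the piRNA pathway gene Mov10l1 (57.8%), Dazl, an RNA-binding protein of germ cells (51.4%), and the meiosis gene Hormad2 (47.6%).

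Imprinted promoters lay between the 2 ends. Of 21 measured, 18 were at 10 to 80%, 3 were lower and none was over 80%, with a median of 31.7%. Gnas, a complex locus with maternal, paternal and biallelic starts, was at 30.8% over 93 CpGs and ranged from 18.7% to 41.6% (median 28.9%) in young STD, from 10.1% to 49.9% (median 33.3%) in aged STD and from 15.4% to 56.5% (median 28.7%) in aged ENR mice. Grb10, an adaptor of insulin signalling, was at 14.8% over 74 CpGs. The lowest was Igf2r, a receptor that clears insulin-like growth factor 2, at 3.21%, and the highest was Mest, a hydrolase gene, at 69.6% with 6 CpGs. In the list of genes of other tissues 3 of 20 were measured, and none was under 10%. Sftpc, a lung surfactant protein, was at 96.5%, Fgb, the fibrinogen beta chain, at 88.4%, and Trf, the iron carrier transferrin, at 63.1%.

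**Figure D3:**
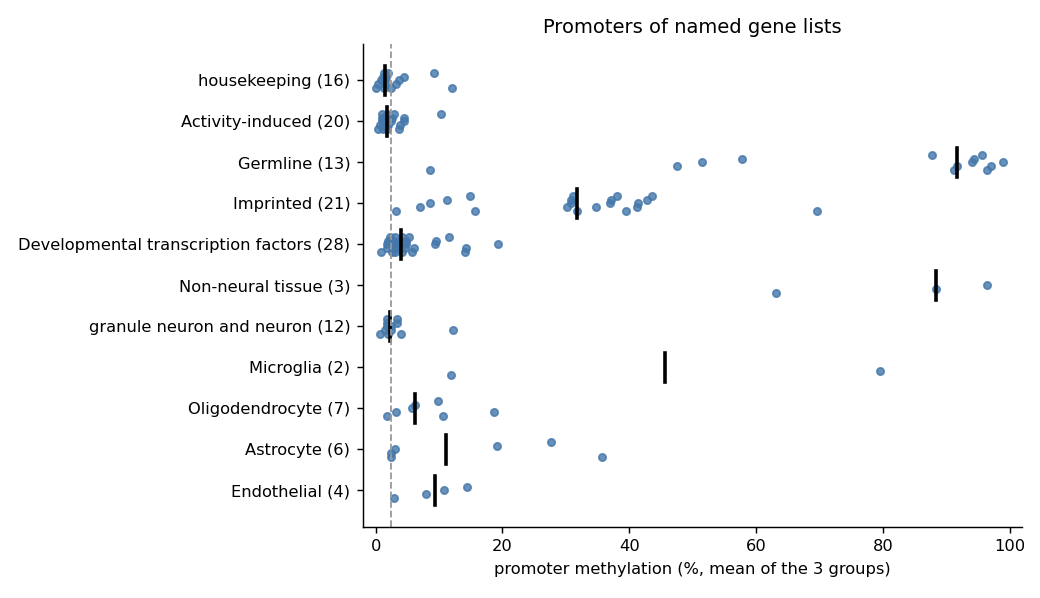
Promoter methylation (percent, mean of the 3 groups) of each measured gene of the lists, with the number of genes in brackets. Points are genes, black bars list medians, and the dashed line is the median of all promoters, 2.45%; germline genes lie at a median of 91.7% and imprinted genes at 31.7%, while housekeeping, activity-induced and neuron genes lie near the left edge.

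A gene can have an unmethylated and a methylated start. Of 1664 genes with 2 starts that had at least 5 CpGs each and shared none, 410 (24.6%) had a start under 10% and another over 80%. The methylated start lay downstream of the unmethylated one in 392 genes and upstream in 18, at a median distance of 19766 bp. The largest difference was at Fam227a on chromosome 15, minus strand, where the start at 79658749 was at 0.375% over 9 CpGs and the start at 79628061 at 99.4% over 6 CpGs. Foxp1, a forkhead transcription factor of neurons, had 0.877% at the start at 99521162 of chromosome 6 (52 CpGs) and 99.2% at that at 98935545 (5 CpGs). Shd (1.05% and 99.4%), Plcl2 (1.59% and 99.8%), Sugt1 (1.12% and 99.2%) and Dock9, an exchange factor of Cdc42 that acts in dendrite growth (0.995% and 98.9%), followed. In these 6 genes the unmethylated start belonged to protein-coding transcripts and the methylated one to a processed transcript or a retained intron, which are not annotated as coding. This did not hold throughout, since over the 410 genes a protein-coding transcript began at the unmethylated start in 278 and at the methylated start in 87. At the methylated starts of these 6 genes, every group mean lay between 97.9% and 100.1%. At the unmethylated starts the group means ran from −1.23% (Shd, aged ENR) to 5.04% (Fam227a, aged ENR), the latter with an SD of 13.1 points over mice.

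With aging, the mean level of the CpGs near starts did not change beyond the spread between mice. Over the 3197 CpGs measured in every mouse, young STD mice ranged from 13.6% to 14.6% (median 14%) and aged STD mice from 12.8% to 14.3% (median 14.1%), and the groups overlapped. The means were 14.04 ± 0.37% and 13.8 ± 0.52% (SD, n = 8 each), a difference of −0.20 points (exact permutation test, two-sided, p = 0.409), or −0.047 points without aged STD replicate 5 (p = 0.796). Over all 326658 CpGs, after adjustment for which CpGs were covered in a mouse, the means were 10.3 ± 0.23% and 10.2 ± 0.27% (difference −0.07 points, exact permutation test, two-sided, p = 0.601). Without aged STD replicate 5 this difference was 0.020 points (p = 0.842 in the same exact permutation test). None of the 20 distance bins differed at an adjusted p under 0.05, and none at an unadjusted p under 0.05.

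Aged ENR mice had lower levels near starts than aged STD mice, but whether the difference passed the test depended on the CpGs and mice used. Over the 3197 shared CpGs, aged ENR mice ranged from 13.1% to 13.9% (median 13.6%) against 12.8% to 14.3% in aged STD mice, with means of 13.5 ± 0.27% and 13.8 ± 0.52% (SD, n = 8 each). The difference of −0.32 points did not pass the test with all mice (exact permutation test, two-sided, p = 0.147) and was −0.47 points without aged STD replicate 5 (p = 0.0103). Within 500 bp of a start it was −0.095 points (p = 0.697 in the exact permutation test with all mice). Over all CpGs near starts, with adjustment for coverage, aged ENR mice ranged from 9.82% to 10.1% (median 9.93%) and aged STD mice from 9.59% to 10.4% (median 10.3%). The means were 9.93 ± 0.093% and 10.2 ± 0.27% (SD, n = 8 each), a difference of −0.28 points (exact permutation test, two-sided, p = 0.0165). The lowest aged STD mouse was replicate 5, the library that stood apart. Without it the other 7 aged STD mice lay at 10.2% to 10.4%, above all 8 aged ENR mice, and the difference was −0.37 points (exact permutation test, two-sided, p = 0.000155, the smallest that 8 against 7 mice allow). Replicate 5 was left out because of its low level, so this gap and its p follow in part from that choice. With mouse and CpG effects fitted together without group labels, an alternative added after the data had been seen, the difference was −0.28 points with all mice (p = 0.0188 in the exact permutation test).

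By level class, the largest of the 3 differences was at CpGs of intermediate level, although the classes were not tested against each other. A class is set by the mean of the 3 groups, so a large change in 1 group can itself move a CpG into the middle class. At CpGs near starts with a level of 10 to 80%, aged ENR mice ranged from 26.5% to 29.5% (median 28.5%) and aged STD mice from 25.1% to 32.5% (median 31.2%), with replicate 5 the lowest. The difference was −2.22 points (exact permutation test, two-sided, p = 0.0267, adjusted p = 0.16 over 6 tests of 3 level classes and both comparisons). It missed 0.05 without aged ENR replicate 4 or aged STD replicate 3, 4 or 7 (−2.03 to −1.93 points, p from 0.0505 to 0.0538 in exact permutation tests). Without replicate 5, left out because of its low level, the difference was −3.02 points and the groups did not overlap (exact permutation test, two-sided, p = 0.000155). At CpGs under 10% and over 80%, aged ENR minus aged STD gave −0.018 and −0.045 points (exact permutation test, two-sided, p = 0.777 and 0.968). By distance, the level was lower in aged ENR mice in 20 of 20 bins, with differences of −0.96 to −0.11 points. In 11 bins the unadjusted p was under 0.05 and in none the adjusted p, the smallest of which was 0.0932 (exact permutation tests, 40 in all). Without aged STD replicate 5, 16 of 20 bins had an adjusted p under 0.05.

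Autosomal CpGs away from starts differed in the same direction. With all mice, aged ENR and aged STD mice had 62.7 ± 0.48% and 63.0 ± 1.91% there (SD, n = 8 each), a difference of −0.32 points (exact permutation test, two-sided, p = 0.765), and without replicate 5 the difference was −0.98 points (p = 0.00186 in the same exact permutation test). Whether the difference near starts exceeds that elsewhere was not tested. The 100 CpGs of the mitochondrial genome, which carries little methylation, were read as 1.20 ± 0.79% methylated in aged ENR and 1.66 ± 0.83% in aged STD mice (SD, n = 8 each), with a range of 0.19% to 3.10% over all mice and a difference of −0.46 points (exact permutation test, two-sided, p = 0.261). Aged ENR mice had a value at 148657 to 282380 CpGs near starts (median 222282) and aged STD mice at 150587 to 268364 (median 198432). The part of these 2 measures in the difference was not tested, and the labels give no batch.

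**Figure D4:**
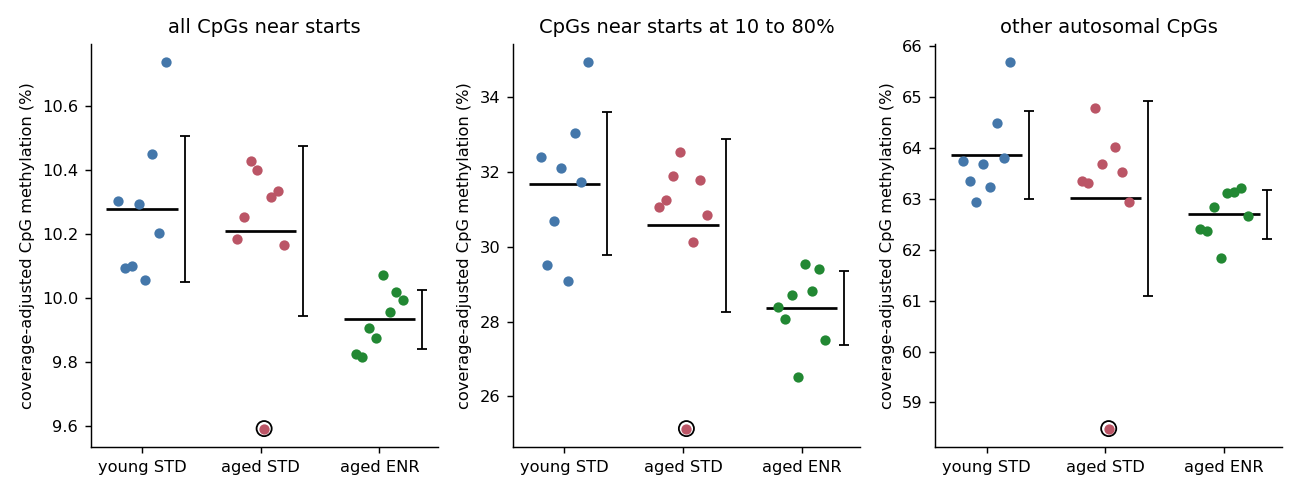
Coverage-adjusted CpG methylation (percent) of each mouse for all CpGs near starts, for those with a level of 10 to 80%, and for the other autosomal CpGs; axes do not start at 0. Points are mice, horizontal lines group means, error bars SD (n = 8), and the circled point is aged STD replicate 5; in the first panel the aged ENR mice lie at 9.82% to 10.1%, below the 7 other aged STD mice.

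Single promoters rarely differed by more than the spread between mice. With aging, limma called 1 of 14281 promoters tested (0.007%; Benjamini-Hochberg adjusted p under 0.05), and 781 (5.47%) had an unadjusted p under 0.05. The called promoter was that of Cyp4f17, a cytochrome P450 gene of fatty acid metabolism (chromosome 17, start 32506050, plus strand, 7 CpGs). Young STD mice ranged from −0.85% to 13.2% (median 1.13%), the 6 aged STD mice with a value from 10.8% to 33.9% (median 25.9%), and the 7 aged ENR mice from 2.55% to 16.1% (median 8.08%). Aged STD and young STD mice overlapped in 1 value each, and the difference was 21.05 ± 3.04 points (SE, adjusted p = 0.0157). The call was kept in 10 of 16 fits that left out 1 mouse and lost without aged STD replicate 2, 4 or 7 or young STD replicate 2, 3 or 7. The next promoters, which were not called, were Rpusd3, a pseudouridine synthase of mitochondria (5.57 points, adjusted p = 0.0612), Gm47782 (11.8 points), AC121603.3 (−20.7 points) and Sox7, a transcription factor of vessels (10.3 points).

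Between aged ENR and aged STD mice, limma called 2 of 14281 promoters (0.014%), and 687 (4.81%) had an unadjusted p under 0.05. Both calls were the same 13 CpGs, shared by the starts of Zkscan4 and of Gm10065 on chromosome 13 (21478907 and 21479441). Aged STD mice ranged from −0.93% to 1.95% (median 0.21%), aged ENR mice from 3.43% to 9.93% (median 8.17%) and young STD mice from −0.70% to 4.03% (median 0.10%). All 8 aged ENR mice lay above all 8 aged STD mice, with a difference of 7.16 ± 0.99 points (SE, adjusted p = 0.0018), and Zkscan4 was called in 16 of 16 fits that left out 1 mouse. The next promoters, Cyp4f17 (−15.5 points), Pelp1, a coactivator of nuclear receptors (−8.38 points), and Lingo3, a leucine-rich repeat protein (3.6 points), were not called.

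The methylation behind the Zkscan4 call was scattered over CpGs and mice. In aged ENR mice, 7 of 95 values were at 50% or more, from 6 mice and at 5 of the 13 CpGs, with at most 2 mice at the same CpG, against 0 of 71 values in aged STD and 0 of 66 in young STD mice. At positions 21479107 and 21479108 of chromosome 13, the opposite strands of 1 CG, aged ENR replicates 6 and 7 had 60.8% and 88.1% on the plus strand and replicates 2 and 5 had 100% on the minus strand. The 4 CpGs from 21479112 to 21479132 were at 0 in every mouse with a value. At Cyp4f17, 5 of 26 aged STD values were at 50% or more, from 4 mice at 4 CpGs, against 1 of 30 values in young STD mice and 3 of 39 in aged ENR mice, the latter from 2 mice at 3 CpGs.

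**Figure D5:**
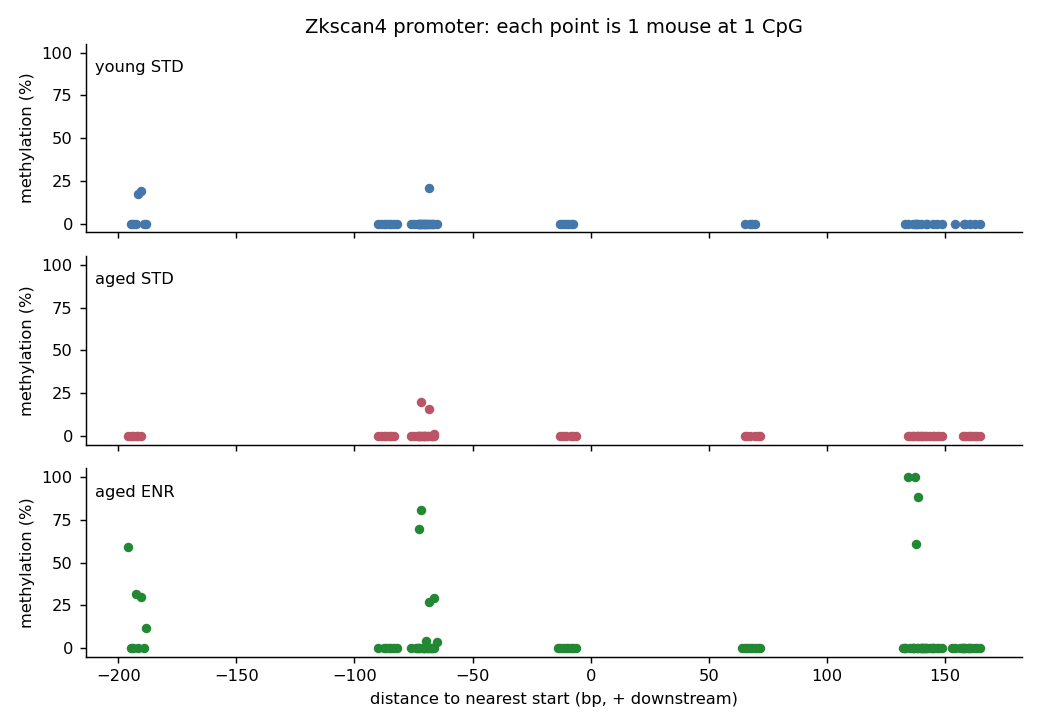
Methylation (percent) of single mice at the 13 CpGs shared by Zkscan4 and Gm10065, by distance to the nearest start of any annotated transcript, with points shifted sideways by mouse. Values of 50% or more occur in aged ENR mice only, 7 of 95 values at 5 CpGs, and in the same mouse the CpGs next to each such value lie at 0.

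High values next to a CpG at 0 were also seen at other unmethylated starts. Among 177785 pairs of CpGs near starts that lay at most 20 bp apart on the same strand and both had a level under 10%, 96.4% of values were exactly 0 and 0.621% (32656 values) were at 50% or more. Beside a value of 50% or more, the neighbouring CpG of the same mouse was at exactly 0 in 93.0% of cases, a lower share than among all values, and at 50% or more in 4.86%, a higher share than among all values. In pairs of 10 to 80%, 31.7% of values were at 50% or more, and 64.0% of their neighbours were too. In the pairs under 10%, values of 50% or more made up 0.657%, 0.654% and 0.561% of the young STD, aged STD and aged ENR values. These shares are descriptions without a test, and the measure was added after the Zkscan4 values had been seen.

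At single CpGs, 13032 of 326658 CpGs near starts had group means more than 25 points apart between young STD and aged STD mice (3.99%, against 9.16% of all CpGs), 6141 higher and 6891 lower in aged STD mice. For aged ENR against aged STD mice the number was 11327 (3.47%, against 8.33% of all CpGs), 4826 higher and 6501 lower in aged ENR mice. By level class, 0.231% of the CpGs under 10% near starts differed by more than 25 points with aging, against 0.635% elsewhere. The mean level of this class was also lower near starts, 1.33% against 2.99%. At 10 to 80% the shares were 31.1% and 31.7%, and over 80% the share was higher near starts, 7.35% against 6.44%. The 10925 CpGs of intermediate level thus made up most of the 13032. The share also rose with distance, from 2.94% within 250 bp to 8.64% in the outermost 250 bp.

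With limma over the whole table (adjusted p under 0.05 and over 25 points), 7 CpGs near starts were called for aging, 4 higher and 3 lower in aged STD mice, against 33 of all CpGs (0.00475%), and 3716 (1.14%, against 2.23% of all CpGs) had an unadjusted p under 0.05. For aged ENR against aged STD mice 4 were called, all lower in aged ENR mice, against 30 of all CpGs (0.00432%), and 3149 (0.964%, against 1.90% of all CpGs) had an unadjusted p under 0.05. These were 8 distinct CpGs, 3 of them called in both comparisons, with at most 6 mice of a group behind any of them. The 3 called in both rest on the same 3 or 4 aged STD mice in each comparison, so the 2 calls at such a CpG are not independent. At position 123133176 of chromosome 5, near Rhof, 4 young STD mice and 4 aged ENR mice were at 0 and 3 aged STD mice at 73.0% to 100% (adjusted p = 0.00484 for aging and 0.00352 for ENR). At position 10184266 of chromosome 19, near Fads1, a fatty acid desaturase, 6 young STD mice were at 0, 4 aged STD mice at 49.1% to 100%, and 6 aged ENR mice averaged 0.575% (adjusted p = 0.0244 and 0.0212). With at least 5 mice per group required, 0 CpGs near starts were called in either comparison by limma.

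No promoter of the lists was called in either comparison. Of the 8 single CpGs called, 1 lay near Impact, of the imprinted list, where 6 aged STD mice were at 100%, 4 aged ENR mice averaged 13.96% and 5 young STD mice 80.4% (adjusted p = 0.04 for ENR, limma). Among the 20 activity-induced promoters, 2 had an unadjusted p under 0.05 for aging and 1 for ENR, and the median differences were 0.17 and −0.28 points, beside −0.004 and −0.17 points over all 14281 promoters. Over all promoters 5.47% had an unadjusted p under 0.05 for aging and 4.81% for ENR. Among the 11 neuron promoters tested, the median differences were 0.66 and 0.63 points, with 1 unadjusted p under 0.05 in each comparison. For markers of other cell types, the number with an unadjusted p under 0.05 for aging and for ENR was 2 and 1 of 6 for astrocytes, 1 and 1 of 7 for oligodendrocytes, 1 and 0 of 4 for endothelium and 0 and 0 of 2 for microglia. The median differences for aging and ENR were 1.80 and −1.72 points for astrocytes, with 4 and 2 of 6 higher, and 0.029 and −2.67 points for oligodendrocytes, with 4 and 1 of 7 higher. They were −1.48 and 2.46 points for endothelium, with 2 and 4 of 4 higher, and −1.91 and −4.47 points for microglia, with 0 and 1 of 2 higher. Sox9 differed by 2.38 and −2.18 points and Olig1 by 3.86 and −4.13 points for aging and ENR, the 2 glial promoters with an unadjusted p under 0.05 in both, for which they were picked. Others of the astrocyte and oligodendrocyte lists differed the other way, such as Ugt8a, an enzyme of myelin lipid synthesis (−3.94 and 9.64 points), and Slc1a2, a glutamate transporter (−0.96 and 0.62 points). Aged STD replicate 2 was at 16.02% for Olig1, beside a group median of 1.94%, and without it the Olig1 differences were 2.13 and −2.33 points. The part of cell type shares in these values was not tested. Among the 18 imprinted promoters tested, single differences ran from −32.3 to 12.7 points for aging and from −24.2 to 23.6 points for ENR, and 0 and 1 had an unadjusted p under 0.05. Of 11 germline promoters tested, 1 had an unadjusted p under 0.05 in each comparison. It was Zar1 in both, with differences of 5.54 points for aging and −6.24 points for ENR. Both comparisons share the aged STD mice.

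Mice differed less from each other near starts than elsewhere at CpGs of low and intermediate level. At CpGs under 10%, a value lay on average 2.11 points from the mean of its group near starts and 4.52 points elsewhere, a difference of −2.41 points that was negative in 24 of 24 mice (sign-flip permutation test, two-sided, p = 1e-05, the smallest that 100000 resamples can give). At 10 to 80% the deviations were 21.99 and 25.7 points (difference −3.70 points, negative in 24 of 24 mice, p = 1e-05 in the same permutation test). Over 80%, CpGs near starts varied slightly more, with 8.58 against 8.12 points (difference 0.46 points, positive in 24 of 24 mice, p = 1e-05 in the same permutation test). Levels within the classes were not equal, with means of 1.33% near starts and 2.99% elsewhere in the lowest class and 30.4% and 44.6% in the middle one. When the middle class was narrowed to 20 to 70%, its difference was −1.08 points.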

How the data were processed

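Dentate gyrus DNA of 24 mice was measured by RRBS, with 8 mice in each of the 3 groups. The submitters' processing notes name Trim Galore 0.4.0, cutadapt 1.8.1, Bismark 0.16.1, methylKit 1.5.2 and mm10. The authors required 10 reads or more per cytosine and mouse, and 3 or more covered mice per group, and deposited the percent of methylated reads per CpG and mouse, without read counts. The read-level test of the study could therefore not be run, and depth is unknown beyond that minimum. One label words the conversion the other way round, but low values at housekeeping starts show that the percent counts methylated reads.

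CpGs were assigned to the nearest GENCODE M21 start, and 386 CpGs tied between starts on opposite sides were left out of the signed profile. Coverage-adjusted levels are the mean deviation of a mouse's values from the mean of the 3 group means of each CpG, plus the overall mean. Promoters had at least 5 CpGs, and a mouse needed 3 of them and each group 5 mice for the test. Promoters and CpGs were tested with limma (version 3.58.1, under R 4.3.3), with the 3 groups in a common fit and Benjamini-Hochberg adjustment, and single values by exact permutation of mice (12870 relabelings) with numpy 2.4.6 and pandas 2.3.3 under Python 3.11.15, and figures were drawn with matplotlib 3.10.9. CpG density was read from GRCm38.p6 and promoter sequences from RefSeq. The fits were tested on simulated data.

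The members and the gene lists were chosen with earlier results of these data known. Named genes were the lowest, the highest and the 2 with most CpGs of each list, the called promoters and the 5 smallest p in each comparison, the 6 largest start differences and the 5 highest promoters, and sequences were printed for the gene of a list with most measured cytosines and for called promoters. Alternatives were other minimum numbers of CpGs and mice, other windows and thresholds, protein-coding starts, a log2 scale, a replicate block and leaving out each mouse in turn. CpGs of chromosomes X and Y and the read-level model were not used here. All columns of the table were used. Some genes that the rule names are not reported here.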

Additional observations from a re-analysis of the deposited data

Results flagged for a closer look

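In 48 groups of 4 to 8 values, the highest or the lowest mouse was compared with the others by the ratio of its gap to the group's range (Dixon), which marks about 1 in 20 groups by chance. It marked 9 values, and 7 of these were of aged STD replicate 5. This mouse had the lowest aged STD values for the coverage-adjusted level near starts (9.59%), for CpGs near starts at 10 to 80% (25.1%) and over 80% (90.1%), and for the levels 500 to 1000 bp downstream (15.96%) and upstream (25.5%). It had the highest share of promoters under 10% (79.2%) and the largest mean deviation from its group at CpGs over 80% (11.0 points). Young STD replicate 8 had the highest level 500 to 1000 bp upstream in its group (29.3%). Young STD replicate 5 had the highest young STD value at the Zkscan4 promoter (4.03%). The cause of these values was not tested.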

How the results depend on the processing

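The difference between upstream and downstream levels and the spread against other CpGs kept their direction and passed their tests under every alternative run for them. The mean level of aged ENR minus aged STD mice was negative under every alternative. It passed the exact permutation test with coverage adjustment over all CpGs (−0.28 points), with at least 5 mice per group (−0.33 points), and with starts of protein-coding transcripts (−0.33 points). It did not pass within 500 bp (−0.095 points, p = 0.697), within 2000 bp (−0.38 points, p = 0.136) or as a plain mean over covered CpGs (−0.52 points, p = 0.494), all in exact permutation tests. Leaving out each mouse in turn gave −0.47 (without aged STD replicate 5, p = 0.0103 in the exact permutation test) to −0.26 points, and −0.37 to −0.24 points with coverage adjustment, with p from 0.000155 to 0.0339 in exact permutation tests. For CpGs at 10 to 80% the range was −3.02 to −1.93 points, and the test was not passed without aged ENR replicate 4 or aged STD replicate 3, 4 or 7. For aging the ranges were −0.27 to −0.047, −0.10 to 0.020 (0.020 without aged STD replicate 5) and −1.51 to −0.31 points. Without aged STD replicate 5, chosen after seeing the data, the share of promoters under 10% per mouse differed by −0.032 points for aging and 1.38 points for ENR, and the ENR differences at 500 to 1000 bp were −0.61 points downstream and −0.96 points upstream.

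Distance bins past the adjusted threshold numbered 0 for both comparisons. For ENR they were 3 with at least 5 mice per group, 8 with protein-coding starts and 0 to 16 when leaving out a mouse, and for aging 1 with protein-coding starts. Promoters called for aging, 1 in the report, were 0 with at least 10 CpGs or 7 mice per group, 2 on the log2 scale, and 0 to 2 when leaving out a mouse, while those for ENR were 2 to 3. CpGs over 25 points were 1993 (aging) and 1748 (ENR) with at least 5 mice per group, 8054 and 6788 with protein-coding starts, 3167 and 2701 over 40 points, and 12003 to 12858 and 10489 to 11454 when leaving out a mouse. CpGs called by limma, 7 and 4, were 0 and 0 with at least 5 mice per group, 4 and 2 both within 500 bp and with protein-coding starts, and 3 to 13 and 3 to 8 when leaving out a mouse. They were 3, 13 and 11 for aging without young STD replicate 1, 3 and 4, and 8, 7 and 8 for ENR without aged ENR replicate 7 and aged STD replicates 5 and 6. The share of promoters under 10% was 82.6% with at least 10 CpGs and 79.3% for protein-coding genes, and 83.7% were under 20%. The cause of these changes was not tested.

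Same-numbered mice are different animals, and their deviations from the group means correlated at −0.0053 on average (−0.0776 to 0.0434 over 24 pairs), with 0 of 24 mice closest to a mouse of their own number, so the numbers do not pair the samples. With the replicate number as a block, the mean differences were unchanged at −0.20 and −0.32 points (p = 0.328 and 0.18 in exact sign-flip permutation tests), 0 promoters were called for aging and 2 for ENR, and 142 and 120 CpGs were called by limma.

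The unknown read depth limits single values, and few CpGs had a value in all mice, so a CpG or promoter that was not called is not shown to be alike between groups.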
